A study of Homo sapiens with 13 samples.

Results

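The loci of the oestrogen receptor genes ESR1 and ESR2 and of the progesterone receptor gene PGR were described through the FOXA1 binding sites mapped around them in 2 human endometrial cancer cell lines, Hec1A and Ishikawa. Their members were the listed peaks whose centre lay in 1 of 3 hg19 windows. Position alone decided membership, while the windows themselves were set with earlier results of these data known. The windows ran over chromosome 6 from 151.60 to 152.90 Mb for ESR1, chromosome 11 from 100.60 to 101.30 Mb for PGR, and chromosome 14 from 64.50 to 64.95 Mb for ESR2. Of the 13252 Hec1A peaks 11 fell in them, and of the 54855 Ishikawa peaks 65 did, 76 of 68107 peaks in all. A window is a stretch around a gene, and its peaks are not assigned to that gene here.

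ESR1 encodes oestrogen receptor alpha and ESR2 oestrogen receptor beta, nuclear receptors that bind DNA when oestrogen is present. PGR encodes the progesterone receptor and is a long-known target of oestrogen in the uterus, where progesterone opposes oestrogen-driven growth of the endometrium. FOXA1 is a forkhead pioneer factor that binds closed chromatin and makes sites accessible to oestrogen receptor alpha in breast cancer cells. Ishikawa is a line from an endometrial adenocarcinoma that is widely used as an oestrogen-responsive model.

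Chromatin was crosslinked, precipitated with a rabbit FoxA1 antibody and sequenced. The Hec1A list was called by the authors on 3 pooled ChIP libraries with 143055568 tags, and the Ishikawa list on 6 pooled ChIP libraries with 343739762 tags and 2 pooled inputs. Both library kits named in the labels are mixed within each pool. The labels name no treatment, genotype or time for either line. Each line has 1 list, so no value below has a replicate error and no difference between the lines has a replicate check. The command and filters in the Hec1A header name no input, unlike those of Ishikawa, whereas the name the authors gave the Hec1A list refers to inputs. As recorded, the Hec1A calls thus carried no input filter, and what the list's name refers to is not settled here. The part that filters and depth play in the lines' peak numbers and levels was not tested. Signal is the number of tags in a peak per 10000000 tags of its pool, and the authors' peaks are 254 bp wide in Hec1A and 353 bp wide in Ishikawa.

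The start regions of the 3 receptor genes are shown to give the sequence that a peak near a start would cover. RefSeq (GRCh38.p14) lists 14 start windows of 300 bases for them, 6 for ESR1, 3 for PGR and 5 for ESR2, some of which overlap. The files' coordinates are hg19, which was not converted, so the peaks could not be placed against these starts. For each gene the window with the most word matches is printed, and on a tie the one of lowest GC content. All ESR1 windows tied at 1 match, as did all PGR windows. Their printed windows were thus picked by GC content (36.3% and 44.3%) and need not be typical of the gene's starts. Capitals mark the forkhead core TGTTT, read as AAACA where it stands on the other strand. They also mark GGTCA, the half-site of the oestrogen response element, which is TGACC on the other strand.
ESR1, GRCh38.p14 chr6:151656422-151656721, plus strand: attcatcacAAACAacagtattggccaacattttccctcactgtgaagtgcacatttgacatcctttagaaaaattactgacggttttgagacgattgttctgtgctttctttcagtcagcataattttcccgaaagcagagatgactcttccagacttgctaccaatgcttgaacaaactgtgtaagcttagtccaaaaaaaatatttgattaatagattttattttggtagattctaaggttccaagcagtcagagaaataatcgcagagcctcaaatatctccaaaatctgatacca
PGR, GRCh38.p14 chr11:101129764-101130063, minus strand: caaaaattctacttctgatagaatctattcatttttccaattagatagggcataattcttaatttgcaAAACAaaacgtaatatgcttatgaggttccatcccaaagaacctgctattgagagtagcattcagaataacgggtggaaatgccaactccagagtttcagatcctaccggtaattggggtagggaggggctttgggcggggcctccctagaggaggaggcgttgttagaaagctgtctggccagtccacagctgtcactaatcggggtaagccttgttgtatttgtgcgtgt
ESR2, GRCh38.p14 chr14:64283026-64283325, minus strand: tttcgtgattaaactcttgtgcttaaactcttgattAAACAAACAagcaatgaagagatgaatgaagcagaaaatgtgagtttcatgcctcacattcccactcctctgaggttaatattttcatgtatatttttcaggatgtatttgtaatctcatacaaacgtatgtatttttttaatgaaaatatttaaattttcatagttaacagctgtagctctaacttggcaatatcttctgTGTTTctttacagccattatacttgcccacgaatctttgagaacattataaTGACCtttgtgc

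The longer forkhead word TGTTTAC was in none of the 14 windows on either strand, against 3.42% of the 35116 RefSeq start windows of all genes. The word TGTTTGC was in none of the 14, against 3.89% of all windows. The word TATTTAC was also in none of the 14, against 2.67% of all windows. At least 1 of these 3 words was in 9.57% of all windows. The full oestrogen response element, GGTCA and its reverse complement with 3 bases between them, was in none of the 14 windows and in 0.0570% of all windows. The short word TGTTT was in 5 of 6 ESR1 windows, 1 of 3 PGR windows and 1 of 5 ESR2 windows, against 44.4% of all windows. GGTCA, which the full element contains, was in 1 of the ESR1 windows, 2 of the PGR windows and 3 of the ESR2 windows, against 37.4% of all. These short words were added after the planned words gave no match, and both are common in any sequence of this length.

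The ESR1 window held 6 Hec1A peaks and 32 Ishikawa peaks. The PGR window held 1 Hec1A peak and 19 Ishikawa peaks, and the ESR2 window 4 Hec1A peaks and 14 Ishikawa peaks. With the Ishikawa list reduced by score to the length of that of Hec1A, the ESR2 window held 4 Hec1A peaks and 2 Ishikawa peaks, so which line had more there depends on the list length. Ishikawa peaks were therefore listed at 24.6 per Mb around ESR1, 27.1 per Mb around PGR and 31.1 per Mb around ESR2. Fixed tiles along the genome, as long as the window and lying between the first and last Ishikawa peak of a chromosome, held 18.6 Ishikawa peaks per Mb on average at each of the 3 lengths. All 3 windows lay above that average, but not at the edge of the range. At least as many Ishikawa peaks stood in 27.2% of the tiles as long as the ESR1 window (95% Wilson interval 25.4% to 29.1%), in 22.7% as long as that of PGR (21.5% to 24.0%) and in 15.8% as long as that of ESR2 (15.0% to 16.7%). These tiles are a full tiling and not a random sample of independent stretches, so the intervals reflect only the number of tiles.

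The Hec1A numbers were 4.62 peaks per Mb around ESR1, 1.43 around PGR and 8.89 around ESR2. At least as many Hec1A peaks stood in 43.6% of tiles for ESR1, 82.1% for PGR and 20.3% for ESR2. The windows were thus ordinary by number in both lists, and the PGR window was on the sparse side in Hec1A.

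**Figure D1:**
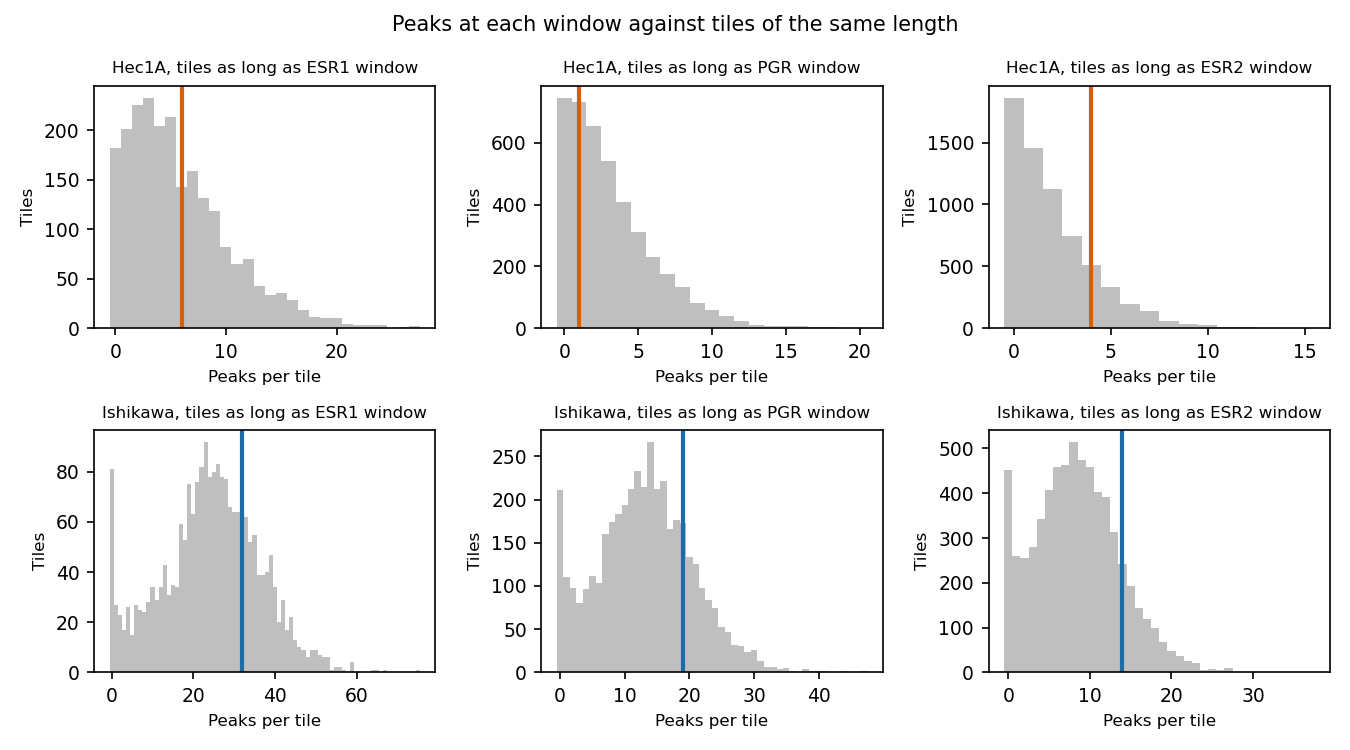
Histograms of tiles by the number of Hec1A peaks (upper row) and Ishikawa peaks (lower row) they hold, for tiles as long as each window. The vertical line is the number at the window itself, such as 6 Hec1A and 32 Ishikawa peaks around ESR1, and in each panel it stands inside the body of the histogram.

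Around ESR1, the strongest Ishikawa peak was chr6:152002155-152002507, with a signal of 317.9 and rank 105 of 54855 by findPeaks score. Its neighbour chr6:151997496-151997848, 4.66 kb away, had a signal of 175.4 and rank 383. With a weaker peak at chr6:152010892-152011244 (signal 17.0) they spanned 13.75 kb and held 44.4% of all Ishikawa signal in peaks of the window. This trio was picked out after the values were seen. The gap before it was 133.5 kb and the gap after it 26.7 kb.

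The computed local level was high at both strong peaks. The local background, computed as signal over fold against the surrounding 10000 bp, was 17.4 at the weaker and 15.8 at the stronger, against a median of 1.83 for Ishikawa peaks of the window. With centres 4.66 kb apart, each peak can fall in the other's surrounding region, so these levels can include tags of the neighbouring peak. The size of that share was not tested. Their folds over the local region were 10.1 and 20.1, below the 40.4 of the next peak in signal. Over input, the folds were 135.9 and 82.1. These rest on 5 and 15 input tags, so their order is uncertain.

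The next Ishikawa peaks by score were spread over the window. chr6:151712874-151713226 had a signal of 122.4 and a fold over input of 118, from 4 input tags. chr6:152379043-152379395 had a signal of 82.1, a local fold of 43.2 and an input fold of 63.6, from 5 input tags. These peaks lay on either side of the trio, 289.3 kb below and 376.9 kb above its strongest member. chr6:152126015-152126367 followed with a signal of 61.6 and rank 2166. Closer to the trio, chr6:152085050-152085402 had a signal of 35.8.

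Below these 6, which were all the ESR1 peaks among the 10% of highest score, signals were 22.5 or lower. The next 4 by score were chr6:152893901-152894253 with 22.3, chr6:151863999-151864351 with 21.6, chr6:151645305-151645657 with 21.1 and chr6:152154744-152155096 with 18.9. The other 22 ranged from 4.22 to 22.5. The median over all 32 was 15.4, against 9.69 over the Ishikawa list.

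The peaks were not evenly spaced. Neighbouring Ishikawa centres lay 26.7 kb apart in the median. The closest pair, chr6:151645305-151645657 and chr6:151648339-151648691, were 3.03 kb apart. The largest gap, 271.3 kb, ran between chr6:152622634-152622986 and the last peak of the window, chr6:152893901-152894253. The first was chr6:151629761-151630113, with a signal of 12.9.

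Hec1A had its strongest peak of all 3 loci at chr6:151712930-151713184, with a signal of 125.0, a focus ratio of 0.990 and rank 104 of 13252. Its fold over the local region was 130.2. The focus ratio is the authors' fraction for how tightly tags surround a peak's centre, and the Hec1A list had a median of 0.823. This 1 peak held 75.4% of the Hec1A signal in peaks of the window. Its centre was 7 bp from that of the third-strongest Ishikawa peak there.

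The other 5 Hec1A peaks at ESR1 were far weaker. chr6:152002239-152002493, at the strongest Ishikawa site, had a signal of 14.7 and a clonal fold of 1.80, close to the authors' limit of 2. A clonal fold above 1 means that tags occupied fewer positions than their number would give. Its score was 80 for about 210 tags, whereas chr6:152702434-152702688 scored 157 for about 209. The remaining 3 were chr6:151773166-151773420 with a signal of 3.57, chr6:152379107-152379361 with 3.36 and chr6:152445889-152446143 with 4.47. These rested on 48 to 64 tags each, not far above the Hec1A threshold of 32.

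Of the 6 Hec1A peaks, chr6:152702434-152702688 alone had no Ishikawa partner, where a partner shares at least 1 bp. It lay inside the largest Ishikawa gap, 79.8 kb from the nearest Ishikawa peak. Its signal was 14.6, its clonal fold 0.95 and its rank 1452. Its local background was 2.28, against a median of 0.810 over the Hec1A list, and its fold over the local region was 6.41. Hec1A input at this site was not analysed here.

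**Figure D2:**
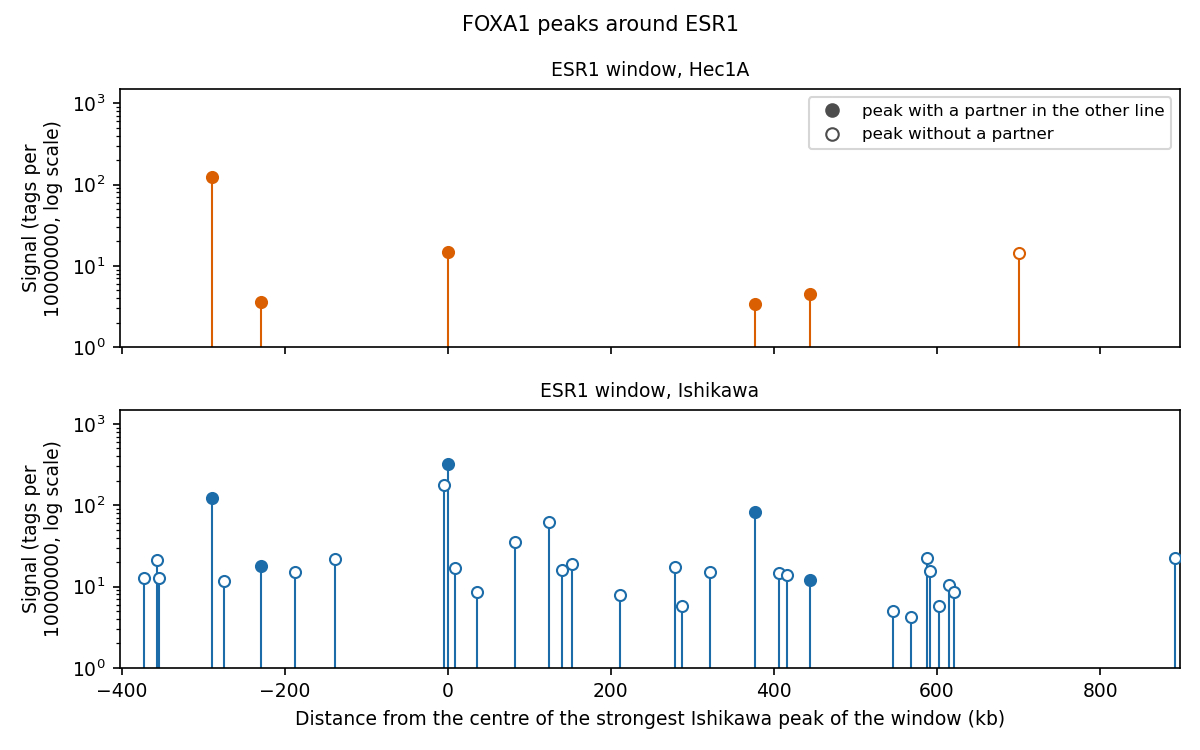
Signal of each ESR1 peak (tags per 10000000, log scale) against its distance in kb from the strongest Ishikawa peak, Hec1A above and Ishikawa below. Filled points have a partner in the other line. The lines are level at the site 289.3 kb below the strongest Ishikawa peak (125.0 in Hec1A, 122.4 in Ishikawa) and far apart at that peak itself (14.7 in Hec1A, 317.9 in Ishikawa).

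The PGR window was dominated by 1 site in both lines. In Hec1A its only peak, chr11:100699036-100699290, had a signal of 11.0 and rank 1334, from about 157 tags. In Ishikawa the same site, chr11:100698975-100699327, had a signal of 600.8 and rank 44 of 54855, the highest of all 65 Ishikawa members. Its fold was 141 over the local region and 258.5 over input, the latter from 9 input tags. The site held 73.3% of the Ishikawa signal in peaks of the window.

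The other 18 PGR peaks of Ishikawa had signals from 3.0 to 31.5, and none had a Hec1A partner. The next by score were chr11:100712527-100712879, 13.6 kb from the strongest, with a signal of 31.5, and chr11:101058518-101058870 with 26. chr11:101212284-101212636 had 20.6 and chr11:101000340-101000692 had 17.7. The ranks of these 4 ran from 7125 to 11818, so no PGR peak but the strongest was among the 10% of highest score. The closest pair were chr11:101212284-101212636 and chr11:101217384-101217736, 5.10 kb apart.

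No Hec1A peak was listed in the higher part of the PGR window. Ishikawa peaks there lay up to 518.4 kb from the nearest Hec1A peak inside or outside the window. The largest Ishikawa gap, 102.5 kb, separated chr11:100796402-100796754 from chr11:100898925-100899277. The first Ishikawa peak by position was chr11:100610297-100610649 with a signal of 9.19, and the last was chr11:101283345-101283697 with 7.77. The weakest of all 65 members was chr11:101088838-101089190, with a signal of 3.0.

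At ESR2 no peak of either line was among the 1% of highest score. Hec1A signals were 4.68 at chr14:64741570-64741824, 2.94 at chr14:64770306-64770560, 4.19 at chr14:64877203-64877457 and 5.59 at chr14:64904945-64905199. They rested on 42 to 80 tags, and their ranks ran from 4172 to 12221 of 13252. The first of them had a clonal fold of 1.83 and a score of 33, next to the threshold of 32. The others had clonal folds of 0.64 to 0.66.

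In Ishikawa the ESR2 peak of highest score was chr14:64559735-64560087, with a signal of 37.2, rank 4249 and a fold over input of 13.1. chr14:64770238-64770590 followed with 16.6 and chr14:64791612-64791964 with 21.6, the second of these with a clonal fold of 1.33. chr14:64805518-64805870 had 10.6 and chr14:64861636-64861988 had 10.4. The remaining 9 ranged from 5.03 to 9.95. The median over the 14 was 8.36, a little under the list's 9.69, so the window with the most Ishikawa peaks per Mb was the weakest of the 3.

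The Ishikawa peaks of the ESR2 window ran from chr14:64501878-64502230, with a signal of 6.55, to chr14:64926519-64926871, with 6.43. The closest pair, 5.11 kb apart, were the strongest peak and chr14:64564847-64565199. The largest gap was 98.2 kb, from chr14:64671998-64672350 to the shared site at chr14:64770238-64770590. The Hec1A-only peak chr14:64741570-64741824 lay in that gap, 28.7 kb from the nearest Ishikawa peak. The other Hec1A-only peaks lay 15.5 and 21.6 kb from one.

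**Figure D3:**
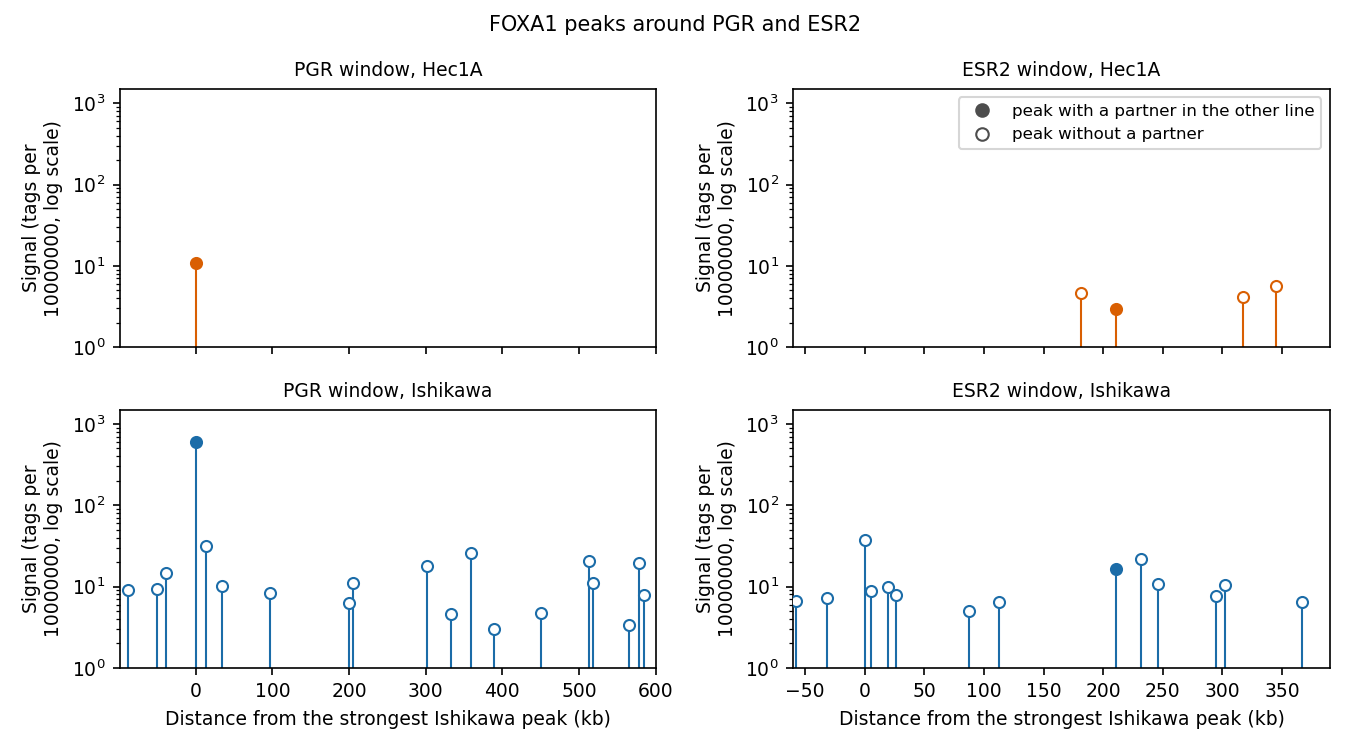
Signal (tags per 10000000, log scale) of peaks in the PGR window (left) and the ESR2 window (right), Hec1A above and Ishikawa below, against distance in kb from the strongest Ishikawa peak. Filled points have a partner in the other line. PGR has 1 tall shared site (11.0 in Hec1A, 600.8 in Ishikawa), whereas no ESR2 peak exceeds 5.59 in Hec1A or 37.2 in Ishikawa.

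The loci shared 7 sites between the lines. Of the Hec1A peaks 5 of 6 had an Ishikawa partner around ESR1, 1 of 1 around PGR and 1 of 4 around ESR2. In all this was 7 of 11, or 63.6% (95% Wilson interval 35.4% to 84.8%), against a background of 52.9% over the Hec1A list. Of the Ishikawa peaks 5 of 32 had a Hec1A partner around ESR1, 1 of 19 around PGR and 1 of 14 around ESR2. That was 7 of 65, or 10.8% (5.32% to 20.6%), against 12.8% over the Ishikawa list. Both intervals contain their backgrounds, so no difference in sharing is shown for the loci as a set. With 11 Hec1A peaks the first interval is too wide to tell whether there is one. The intervals cover counting error alone.

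Members of high score were the ones that more often had a partner, as in the whole list. Of the 8 Ishikawa members among the 10% of highest score 4 had a Hec1A partner, against a background of 38.6% for such peaks. Of the 57 weaker members 3 had one, against 9.91% for such peaks. Of the 3 members among the 1% of highest score 2 had one, against 50.7% for such peaks. The one without was chr6:151997496-151997848, with a signal of 175.4. The nearest Hec1A peak was the one at the strongest Ishikawa site, 4.69 kb away. An unlisted site has no value in the Hec1A list, and it may have missed the tag threshold, the local filter or the clonal filter, so the Hec1A level there is not known.

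Shared sites held 85.0% of the Hec1A signal in members and 54.9% of the Ishikawa signal in members, against 56.4% over the Hec1A list and 27.3% over the Ishikawa list. Most of it stood at 1 ESR1 site in Hec1A, and at the PGR site and the strongest ESR1 site in Ishikawa.

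The signal at the 7 shared sites was then compared between the lines. Over all 7012 shared sites the median ratio of Hec1A over Ishikawa signal was 0.284, and Hec1A was higher at 6.43%. Of the 7 members 1 was above a ratio of 1 and 6 below. As both peak widths and filters differ, a ratio of 1 does not mark equal binding, and the ratios are read against the other shared sites. The intervals given are exact 95% intervals from approximate tag numbers, recovered from the deposited signals, and cover counting error alone.

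At chr6:151712930-151713184 the ratio was 1.02 (0.966 to 1.08), from about 1788 Hec1A tags and 4207 Ishikawa tags. Few shared sites were so strong in Hec1A relative to Ishikawa, and 6.23% had a higher ratio. Of the 361 shared sites whose Ishikawa signal was at least as high, itself included, 359 had a lower ratio, and their median was 0.104. As the site has the lowest Ishikawa signal of this set, its ratio tends to stand higher there than among all shared sites. By fold over the local region the ratio at this ESR1 site was 3.23, against a median of 0.528 over all shared sites.

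The strongest ESR1 site in Ishikawa had a ratio of 0.0462 (0.0401 to 0.0529), with signals of 14.7 in Hec1A and 317.9 in Ishikawa. By fold over the local region its ratio was 0.885, with local backgrounds of 0.825 in Hec1A and 15.8 in Ishikawa. The site thus stood below the median of all shared sites by signal (0.284) and above it by local fold (0.528), so its direction against them turns with the measure. The Ishikawa local background here can include tags of the neighbouring peak 4.66 kb away, which has no Hec1A partner. Its part in the local-fold ratio was not tested. The ESR1 site at chr6:152379107-152379361 had a ratio of 0.0409 (0.0301 to 0.0543). At the PGR site the ratio was 0.0183 (0.0155 to 0.0214), and 0.385% of all shared sites had a lower one. By fold over the local region the ratios of these were 0.0953 at chr6:152379107-152379361 and 0.0803 at PGR. Low ratios went with high Ishikawa signal across the lists too. This trend is partly built in, since Ishikawa signal is the divisor. A shared site must also pass the Hec1A calling threshold, which keeps very low ratios from weak Ishikawa sites. The sites below are therefore compared with those of at least equal Ishikawa signal. The site itself then has the lowest Ishikawa signal of its set. The comparison thus does not remove the trend, and what remains tends to place the site's ratio higher in the set. The median was 0.0830 over the 16 shared sites at least as strong in Ishikawa as the PGR site, and 0.0791 over the 70 at least as strong as the strongest ESR1 site. Of those 16 sites 5 had a lower ratio than PGR, and of those 70 sites 28 had a lower ratio than the ESR1 site. For chr6:152379107-152379361 this was 100 of 660 sites, or 15.2%.

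The remaining shared sites had Hec1A signals of 2.94 to 4.47, under the list median of 4.96, and Ishikawa signals of 12.0 to 17.9, above the list median of 9.69. chr6:152445889-152446143 had a ratio of 0.372 (0.282 to 0.487). chr6:151773166-151773420 had a ratio of 0.199 (0.147 to 0.265), and chr14:64770306-64770560 at ESR2 one of 0.177 (0.126 to 0.242). The intervals of the last 2 overlap, and each lies below the median of all shared sites. Over shared sites at least as strong in Ishikawa, the median was 0.183 for chr6:151773166-151773420 and 0.189 for the ESR2 site. Of those sites 55.4% and 45.5% had a lower ratio, so by this comparison, with the limit given above, neither stood out as low. For chr6:152445889-152446143 that median was 0.2205, and 78.0% had a lower ratio. The site chr6:151773166-151773420 was shared by 71 bp alone, with centres 233 bp apart, whereas the centres of the other 6 lay 1 to 35 bp apart.

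**Figure D4:**
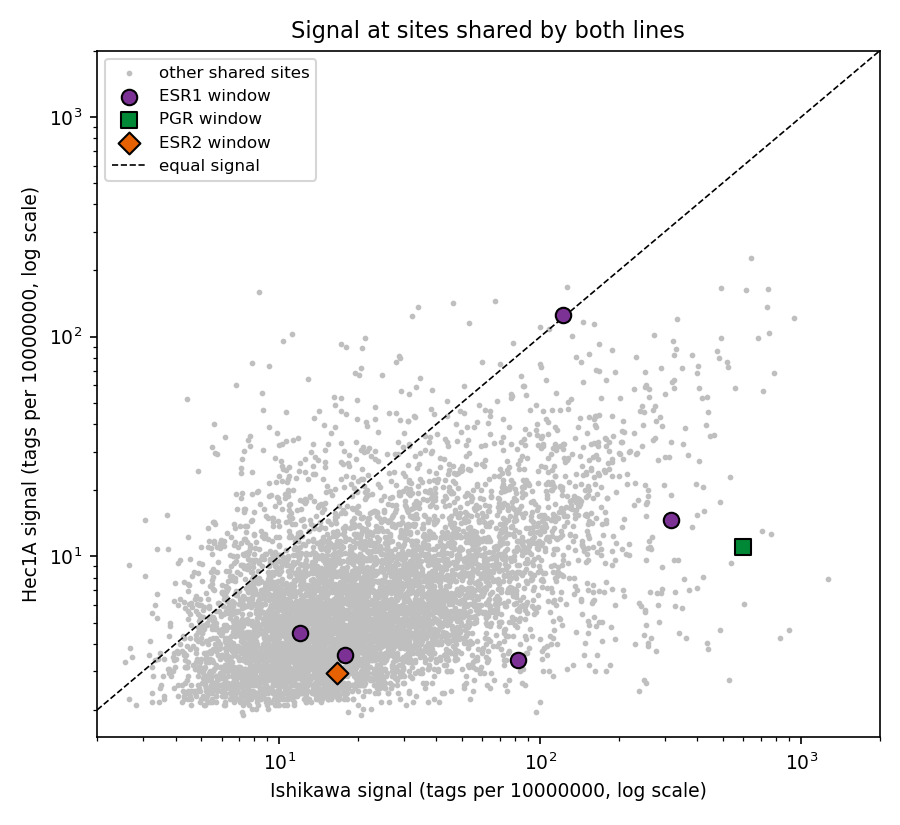
Hec1A signal (vertical) against Ishikawa signal (horizontal) at all sites shared by the lines, both in tags per 10000000 on log scales. The 7 sites of the receptor windows are coloured and other shared sites grey. The ESR1 site of 125.0 in Hec1A lies on the dashed line of equal signal, and the PGR site (11.0 in Hec1A, 600.8 in Ishikawa) lies far below it.

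Ranks within each line's own list were then counted. Around ESR1, 6 of 32 Ishikawa peaks (18.8%) were among the 10% of highest score, around PGR 1 of 19 and around ESR2 1 of 14, against a background of 10.0%. In Hec1A 1 of 11 members was, against 10.1%. The PGR peak of Hec1A, at rank 1334, stood at the border of the highest 10%. Ranked by fold over the local region in place of score, the Ishikawa numbers were 3 around ESR1, 3 around PGR and 0 around ESR2, so the larger number at ESR1 depends on the measure. In the lower 50% of the Ishikawa list by score were 8 of 32 ESR1 peaks, 8 of 19 PGR peaks and 8 of 14 ESR2 peaks, against 27389 of all 54855. The share was thus lowest around ESR1 and highest around ESR2.

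**Figure D5:**
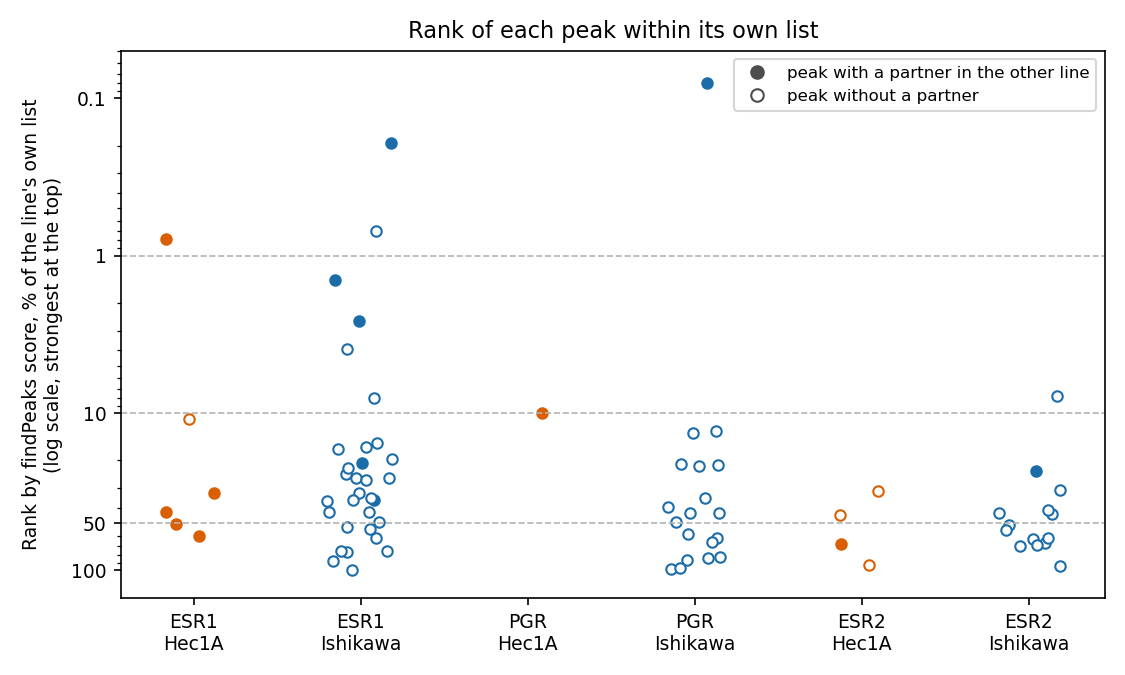
Rank of every member by findPeaks score, as a percentage of its own list on a log scale with the strongest at the top, for each window and line. Filled points have a partner in the other line and dashed lines mark 1%, 10% and 50%. Ishikawa has 2 ESR1 peaks and 1 PGR peak above 1%, Hec1A has 1 ESR1 peak there, and no ESR2 peak of either line reaches it.

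Background levels at the loci are given because they bear on what is called a peak. The median local background of Hec1A peaks was 0.892 around ESR1, 0.971 at the PGR peak and 0.664 around ESR2, against 0.810 over the list. In Ishikawa it was 1.83 around ESR1, 1.28 around PGR and 1.28 around ESR2, against 1.34. Median input tags per Ishikawa peak were 6.5 around ESR1, 4 around PGR and 6 around ESR2, against 5. ESR1 thus had the highest Ishikawa local background and input of the 3 windows, and their part in its counts was not tested. Of the Hec1A members 2 of 11 had a clonal fold above 1, against 28.8% over the list, and of the Ishikawa members 12 of 65, against 25.1%.

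The windows have set edges, and peaks outside them are not members. The peaks given here are the nearest to each edge on either side. They lay 21.2 to 474.5 kb outside it and 2.05 to 600.8 kb inside it, so many did not stand at the edge. At the higher end of the ESR2 window a shared site lay 21.2 kb outside, at chr14:64971058-64971312 in Hec1A with a signal of 13.7 and chr14:64971003-64971355 in Ishikawa with 96.9, above any ESR2 member. The last members inside that end had 5.59 in Hec1A and 6.43 in Ishikawa. At its lower end the nearest peaks outside had 38.7 in Hec1A and 8.47 in Ishikawa, and the first inside had 4.68 in Hec1A and 6.55 in Ishikawa. At the lower end of the ESR1 window the Hec1A peaks inside and outside had signals of 125.0 and 37.1, and the Ishikawa peaks 12.9 and 6.69. At its higher end the Hec1A peaks inside and outside had 14.6 and 4.19, and the Ishikawa peaks 22.3 and 5.18. The Hec1A peaks outside the PGR window had 5.45 at the lower end and 5.66 at the higher end, against 11.0 inside. Its Ishikawa peaks inside and outside had 9.19 and 11.4 at the lower end, and 7.77 and 46.0 at the higher end. The stronger peak beyond that edge lay 154.6 kb from it. In the order of genes in GRCh38.p14, ESR1 stands between CCDC170 and SYNE1, PGR between ARHGAP42 and TRPC6, and ESR2 between SYNE2 and MTHFD1, so the windows can include peaks nearer to other genes. SYNE1 and SYNE2 encode nesprins of the nuclear envelope, TRPC6 a cation channel and MTHFD1 a folate enzyme.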

How the data were processed

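FOXA1 ChIP-seq libraries and inputs of 2 cell lines were pooled by line by the authors. The build was hg19, and the submitters' processing notes name HOMER 4.7.2, SAMtools 1.3.1 and Bowtie 1.1.2. Per the file headers, peaks were called with HOMER findPeaks in factor style at a false discovery rate of 0.001 (at least 32 tags in Hec1A, 88 in Ishikawa). Required were a fold of 4 over the surrounding 10000 bp and a clonal fold of at most 2, and in Ishikawa also a fold of 4 over input. Per the file headers, the deposited signal is tags per 10000000, and the deposited score is a tag number. The authors' folds over local region, input and expected positions are ratios, and the deposited focus ratio is a fraction. The clonal fold serves as a score of repeated tags, and the p-value columns were not used.

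The windows came from the stated rule, and a peak was a member if its centre lay inside. A partner shared at least 1 bp. Ranks run from the highest score. All peaks with a partner, all Hec1A peaks, the 10 (ESR1) or 5 (PGR, ESR2) Ishikawa peaks of highest score, the first and last peak, the closest pair and the largest gap of each window were named. The nearest peaks outside the windows, the trio at ESR1 and the weakest PGR peak were added afterwards. Members and lists were chosen with earlier results of these data known. Shares have 95% Wilson intervals. Ratios of tags have exact intervals and, with 1 pool per line, no p-value. The overlap and ratio procedures were tested on simulated data with Python 3.11.15, pandas 2.3.3, NumPy 2.4.6 and SciPy 1.17.1. Alternatives on filters, overlap, window edges, tiles, ranking and signal scale were computed. Gene annotation and sequence of hg19 were not used here.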

Additional observations from a re-analysis of the deposited data

How the results depend on the processing

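Of 110 alternatives, 68 kept counts within 1.5 times or values within their interval and 42 moved. Some could not move, since Hec1A counts cannot change when only the Ishikawa list is filtered or reduced. Shared sites were also counted once from each line, with the same result. The 68 is therefore not a measure of stability. No ratio of Hec1A over Ishikawa at a shared site crossed 1. A ratio of 1 does not mark equal binding, and the interval of the ESR1 site at 1.02 (0.966 to 1.08) contains it. At a local fold of 8 or more, Hec1A peaks numbered 2 around ESR1 and 0 around ESR2, Ishikawa peaks 18, 8 and 4 around ESR1, PGR and ESR2, and shared sites 2 around ESR1 and 0 around ESR2. At an input fold of 8 or more, Ishikawa peaks numbered 19, 11 and 5, and with the Ishikawa list reduced to the length of that of Hec1A 12, 6 and 2. At ESR2 the order of the lines then turned, with 4 Hec1A peaks against 2 Ishikawa peaks, in place of 4 and 14. These fewer peaks follow from the thresholds. Windows narrowed by 100 kb left 0 Hec1A and 10 Ishikawa peaks at PGR with 0 shared, since the PGR site lies 99.2 kb from the edge, and 2 Hec1A and 5 Ishikawa peaks at ESR2. Windows widened by 100 kb gave 22 Ishikawa peaks and 3 shared sites at ESR2. Among tiles with at least 1 Ishikawa peak, 17.0% held as many as the ESR2 window. Ranked by fold over the local region, 3, 3 and 0 Ishikawa peaks of ESR1, PGR and ESR2 were in the highest 10%, in place of 6, 1 and 1. With 3 of 32 peaks ESR1 then stood close to the 10.0% background. PGR, with 3 of 19, stood above it on few peaks. The cause was not tested.

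Ratios of Hec1A over Ishikawa by fold over the local region were, in order of position, 3.23, 0.419, 0.885, 0.0953 and 0.529 at the ESR1 sites, 0.0803 at PGR and 0.293 at ESR2. Per base pair of peak width, an alternative chosen after seeing the data, they were 1.42, 0.277, 0.0643, 0.0569 and 0.518 at ESR1, 0.0255 at PGR and 0.246 at ESR2. This scale multiplies every signal ratio by the same factor, so no site's standing among shared sites can change. The median of all shared sites on it was 0.394. The signal at the strongest ESR1 site differed by a ratio of 0.0462 and the fold over the local region by 0.885, below the median of all shared sites by the first and above it by the second, with local backgrounds of 0.825 in Hec1A and 15.8 in Ishikawa. That Ishikawa background can include tags of the Ishikawa peak 4.66 kb away, which has no Hec1A partner, and its part was not tested. Hec1A members other than that of highest signal rest on 42 to 210 tags. Leaving out libraries was not run because the lists were called on pools. No paired analysis was possible because both lists come from pools.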
